A study of Mus musculus with 2 samples.

Results

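The Kcnq1-Cdkn1c imprinted domain lies on mouse chromosome 7. Its CTCF peaks were taken from chromatin immunoprecipitation followed by sequencing (ChIP-seq) of midbrain from B6NCrl mice at postnatal day 0. All peaks of the optimal list whose summit lay between 143086362 and 143481050 on chromosome 7 (mm10) were used. That stretch holds Kcnq1, Kcnq1ot1 and Cdkn1c with 20 kb on each side. It held 14 of the 68590 optimal peaks on chromosomes 1 to 19 and X, numbered here 1 to 14 in chromosome order. There was 1 group of 2 replicates. The labels give both the same biosample and the same donor, and differences between them may therefore be technical only. The antibody was against CTCF, no treatment or engineered allele is recorded, and the labels record no sex. B6NCrl is an inbred strain and the lists carry no allele information, so binding on the maternal and the paternal chromosome could not be told apart. The signal is an average over all cells of the dissected midbrain, whose cell types were not checked here.

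CTCF, a protein with many zinc fingers, recognises an asymmetric DNA motif and halts cohesin, and chromatin loops are often held between sites that point towards each other. In this domain the start of the long noncoding RNA Kcnq1ot1 lies in an intron of Kcnq1, inside an imprinting control region that is methylated on the maternal chromosome. The RNA is transcribed from the paternal chromosome, antisense to Kcnq1, and several neighbouring genes are then expressed mainly from the maternal one. Among them is Cdkn1c, which encodes the cell cycle inhibitor p57Kip2, an inhibitor of cyclin-dependent kinases that acts in maturing midbrain dopamine neurons of the mouse. Kcnq1 encodes the pore subunit of a voltage-gated potassium channel. Loss of methylation at the human control region is a frequent finding in Beckwith-Wiedemann syndrome, an overgrowth disorder.

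The sites below were picked by motif score or by signal and are not all the matches of the span. The first is the best match to the CTCF motif among the peaks before Kcnq1. The others are those of the 4 strongest peaks, which lie on either side of the long stretch around Kcnq1ot1. Sequences are from GRCm38.p6, the same build as mm10. They are written 5′ to 3′ on the strand of the match, with the 20 bp match in capitals and 10 bases of flank on each side. A site is said to point along the chromosome when its match, in the orientation printed, is on the plus strand, and back along it when on the minus strand.
peak 3, chr7:143094896-143094935, plus strand: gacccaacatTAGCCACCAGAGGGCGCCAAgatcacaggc
peak 9, chr7:143153982-143154021, plus strand: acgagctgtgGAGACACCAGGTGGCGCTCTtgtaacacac
peak 11, chr7:143464065-143464104, minus strand: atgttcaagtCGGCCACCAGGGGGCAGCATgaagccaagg
peak 12, chr7:143466483-143466522, minus strand: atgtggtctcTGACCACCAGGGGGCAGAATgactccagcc
peak 13, chr7:143470145-143470184, minus strand: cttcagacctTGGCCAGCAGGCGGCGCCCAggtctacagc
Peaks 11, 12 and 13 all have their match on the minus strand, so they point towards Kcnq1, while the match of peak 9 points towards them. Among the matches not shown, those of peaks 1, 2, 5 and 8 are on the minus strand. Those of peaks 7 and 14 are on the plus strand.

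The Kcnq1ot1 promoter is shown because no optimal peak lies in or near it. The 300 bases at chr7:143296498-143296797 on the minus strand run from 250 bases before to 50 bases after the RefSeq start (GRCm38.p6), with each CCAAT in capitals.
Kcnq1ot1 promoter: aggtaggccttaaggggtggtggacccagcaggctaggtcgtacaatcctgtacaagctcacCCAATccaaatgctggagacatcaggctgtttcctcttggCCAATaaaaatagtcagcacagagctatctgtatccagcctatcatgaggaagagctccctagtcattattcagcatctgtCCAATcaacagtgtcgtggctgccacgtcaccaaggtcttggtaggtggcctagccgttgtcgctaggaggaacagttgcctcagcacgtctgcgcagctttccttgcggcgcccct
CCAAT occurs 3 times, each time on the strand of the RNA. When both strands were searched, 3.37% of 32851 RefSeq promoter windows of this length held as many, and 37.4% held at least 1. The window also holds 9 CpG dinucleotides and no TGCCGC, the hexamer that the imprinting factor ZFP57 binds when methylated. TGCCGC was found on either strand in 11.6% of the promoter windows. A match says that these letters are present, not that a factor binds.

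The 14 peaks formed 3 close groups at the outer parts of the domain and left its middle nearly empty. The first group, peaks 1 to 4, covered 8.89 kb at Trpm5, before Kcnq1. The next, peaks 5 to 9, covered 15.0 kb in the 5′ introns of Kcnq1. The third, peaks 11 to 13, covered 6.08 kb just upstream of Cdkn1c. Peak 10 stood alone in the 3′ part of Kcnq1, and peak 14 lay in an intron of Slc22a18, which encodes a membrane transporter-like protein of the same imprinted cluster. Kcnq1 spans 320.7 kb (143106362 to 143427042, plus strand) and held 6 summits. Kcnq1ot1 (143203458 to 143296549, minus strand) and Cdkn1c (143458339 to 143461050, minus strand) held 0.

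**Figure D1:**
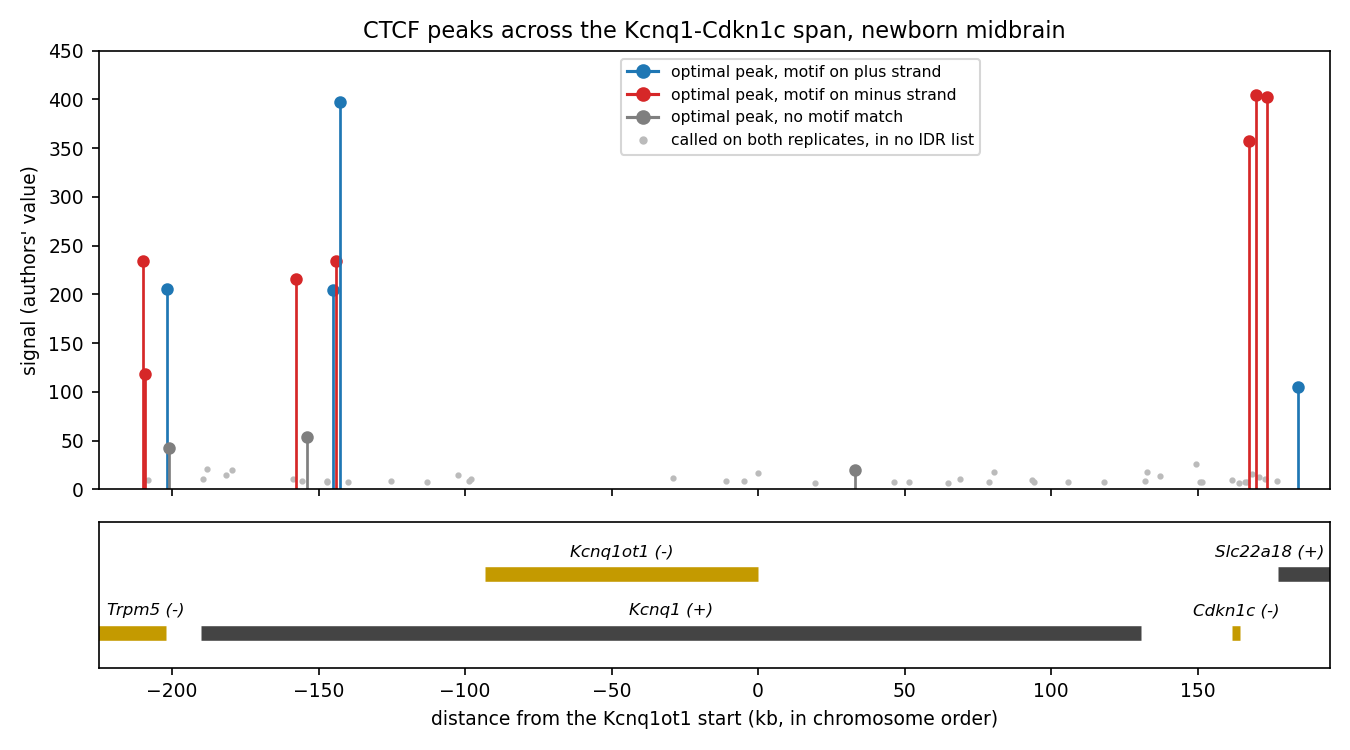
CTCF peaks by distance from the Kcnq1ot1 start (kb), with signal on the vertical axis and genes drawn below to scale with their strand. Stems are the 14 optimal peaks, coloured by the strand of the motif match, and small dots are the 44 peaks of the list called on both replicates that are in neither IDR list, of which 2 are above the weakest optimal peak. The 4 tallest stems, 358 to 404, stand on either side of the stretch that holds Kcnq1ot1.

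The 4 strongest peaks were peak 12 (signal 404), peak 13 (402), peak 9 (397) and peak 11 (358). The signal is the authors' own value on an unstated scale, and it was used to rank peaks within a list. These 4 lay above the 90th percentile of all optimal peaks, at 94.4, 94.2, 93.8 and 90.3. Peak 1 came next, at 235 and percentile 77.7. The lowest was peak 10, with a signal of 20.02 at percentile 1.78. The median over the 14 peaks was 211, against 76.5 over all optimal peaks, and 11 of the 14 lay above the median of all peaks. No test was made of this difference, since peaks of 1 tissue are not replicates.

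The span held 35.5 peaks per Mb, against 30.5 on chromosome 7 and 27.2 over the 19 autosomes. This higher density rested on the flanks, since the 20 kb before Kcnq1 and the 20 kb after Cdkn1c held 4 peaks each. Without the flanks 6 peaks were left, all inside the 320.7 kb of Kcnq1. Among other imprinted domains taken with the same 20 kb on each side, H19-Igf2 held 9 peaks (68.6 per Mb), Igf2r-Airn, which like Kcnq1 hosts an antisense RNA, held 8 (36.7 per Mb) and Gnas held 10 (94.8 per Mb). The Kcnq1-Cdkn1c span was the longest of these 4 regions, at 394.7 kb. Its median signal percentile was 75.0, against 73.5 for H19-Igf2, 50.8 for Igf2r-Airn and 58.2 for Gnas. Peaks above the 90th percentile numbered 4 of 14 in the Kcnq1-Cdkn1c span, 1 of 9 at H19-Igf2, 0 of 8 at Igf2r-Airn and 1 of 10 at Gnas. Of the 4 in the Kcnq1-Cdkn1c span, peaks 11, 12 and 13 lay in the flank after Cdkn1c and peak 9 inside Kcnq1. All counts in this comparison are single and were not tested.

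Both replicates held nearly all of these peaks. A summit within 100 bp was found in both replicate lists for 13 of 14, against 97.8% of all optimal peaks. Peak 12 had a signal of 206 in replicate 1 and 199 in replicate 2. Peak 13 had 205 in replicate 1 and 197 in replicate 2. For peak 9 the values were 210 in replicate 1 and 185 in replicate 2, and for peak 11 they were 182 and 173. At each of these 4 sites the replicates ranked the peak alike, between percentiles 88.5 and 95.4 of the peaks found in both. Peak 1 had 117 in replicate 1 and 119 in replicate 2, and was the only member with the higher value in replicate 2.

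The log2 ratio of replicate 1 to replicate 2 ran from -0.03 at peak 1 to 1.06 at peak 6, about a median of 0.30 over 67101 optimal peaks (SD 0.46). Among the 13 peaks the furthest from that median was peak 6, with 35.9 in replicate 1 and 17.2 in replicate 2, which lay 1.62 SD above it. Peak 10 is not among the 13, because its nearest replicate 2 summit was 102 bp away. With 14.2 in replicate 1 and 5.86 at that replicate 2 summit, its ratio was wider than that of peak 6. Across the 13 peaks Spearman's rho between replicates was 0.93, given as a description since the peaks share both libraries. Over all peaks it was 0.948.

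**Figure D2:**
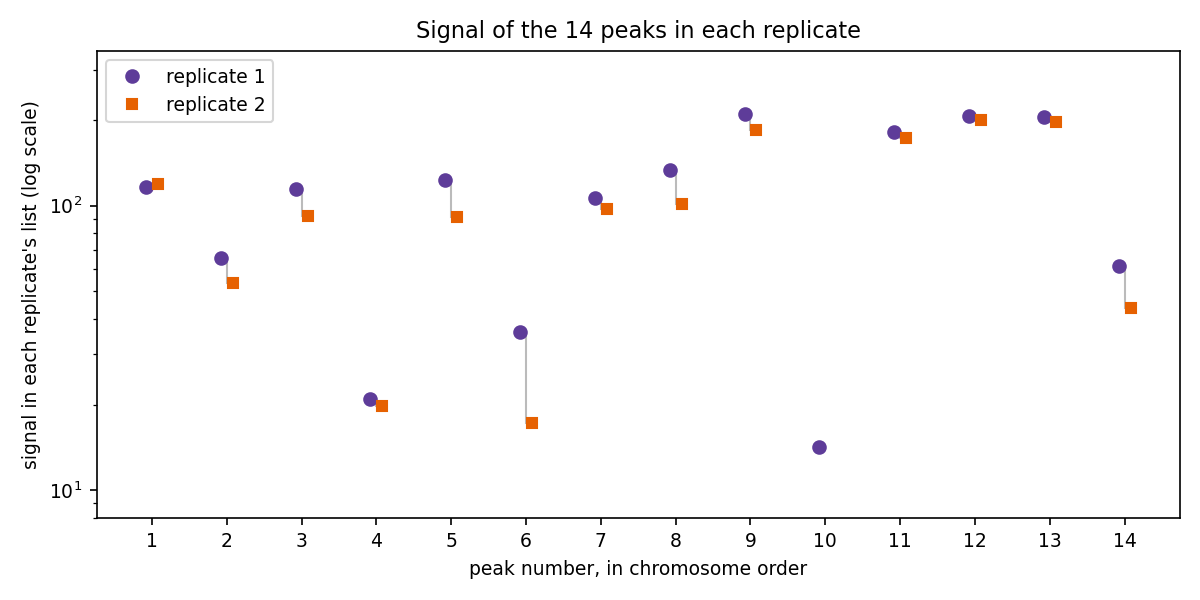
Signal of each of the 14 peaks in replicate 1 (circles) and replicate 2 (squares) on a log scale, in chromosome order. Peaks 9, 11, 12 and 13 are the highest in both. Peak 6 has the widest spread of those drawn with both values, and peak 10 has a value within 100 bp in replicate 1 alone.

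Peak 10 was the member on which the libraries differed most in place. Its summit was 1 bp from a replicate 1 summit of signal 14.2, while the nearest replicate 2 summit was 102 bp away, with 5.86. With a limit of 200 bp, or by overlap of the peaks, all 14 were found in both replicates. Peak 10 was also the only member absent from the conservative list, the other deposited list thresholded by the irreproducible discovery rate (IDR). Of the 14 peaks 13 shared their summit with that list, against 86.9% of all optimal peaks. Peak 10 had no motif match, and it lay 951 bp from a start of the antisense transcript 4933417O13Rik. Statements about the middle of the domain are therefore given with and without it.

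Of the 14 peaks 11 held a CTCF motif match no more than 50 bp from the summit, against 58.6% of all optimal peaks and 0.949% of windows 1 kb to each side of them. The threshold was a per-position p of 1e-05 under a matrix learned on even-numbered chromosomes, so no peak of chromosome 7 helped to make it. The best match was that of peak 11, at a per-position value of 1.59e-10, whose score was higher than 99.9% of best scores at all optimal peaks, followed by peak 3 (3.58e-09) and peak 12 (4.93e-09). Peak 9 (2.85e-07) and peak 13 (2.56e-07) were at the 81.0 and 81.8 percentiles. Peaks 2 and 14 had strong matches, at the 95.3 and 90.8 percentiles, but signals of 118 and 105. Strong letters did not always go with high signal here, and Spearman's rho between score and signal was 0.52 over the 14 peaks and 0.45 over all optimal peaks.

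**Figure D3:**
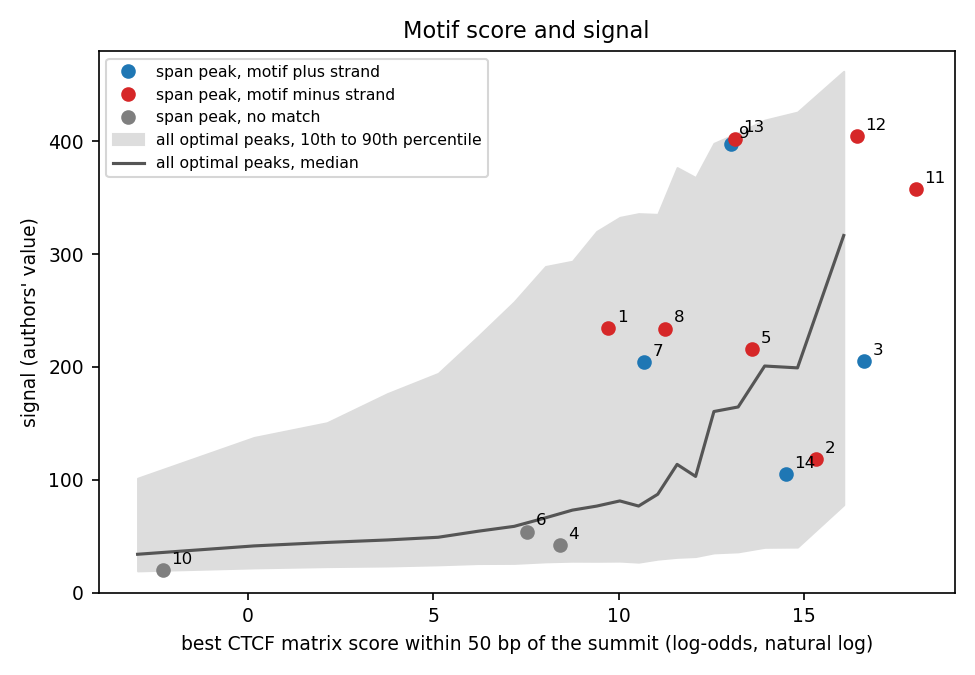
Signal against the best CTCF matrix score within 50 bp of the summit, with the 14 span peaks as numbered points. The line is the median and the band the 10th to 90th percentile of all optimal peaks in 20 score bins. Peaks 9 (397) and 13 (402) lie above the median line at their scores and peaks 2 (118) and 14 (105) below it, while peaks 3, 11 and 12 score beyond the median of the last bin, where the line ends.

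The 3 peaks with no match were also the 3 weakest, peak 6 (signal 54.1), peak 4 (42.0) and peak 10 (20.02). The best sites of peak 4 (1.16e-05) and peak 6 (2.05e-05) were just past the threshold of 1e-05, and that of peak 10 (0.00238) was far from it. Over all optimal peaks the median signal was 126 with a match and 48.4 without.

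Of the 11 matches 4 were on the plus strand and 7 on the minus strand. In chromosome order the strands of peaks 1, 2 and 3 read minus, minus, plus. Those of peaks 5, 7, 8 and 9 read minus, plus, minus, plus, and those of peaks 11 to 14 minus, minus, minus, plus. Among the 10 pairs of neighbouring matches 3 were convergent (pointing towards each other), 4 divergent and 3 alike, against 23.7% convergent, 23.7% divergent and 52.7% alike over all neighbouring matches. The convergent pairs were peaks 3 and 5, peaks 7 and 8, and peaks 9 and 11. The last of these pairs encloses the Kcnq1ot1 gene with its start, the 3′ part of Kcnq1, and Cdkn1c. Pair orientation was looked at after the values were seen. Contacts between sites were not measured.

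CpG methylation can hinder CTCF at sites with a CpG in the motif, and 6 of the 11 matches held a CpG, against 38.1% of all matches. They were those of peaks 3, 7, 9, 11, 13 and 14. Methylation was not measured, and this feature too was added after the values were seen. In 301 bp windows centred on the summits GC content ran from 47.2 to 61.8%, with a median of 56.5%, against 47.8% over all optimal peaks. CpG counts ran from 1 to 11 with a median of 3, against 4 over all peaks. Peaks 9 to 14 held 7 to 11 CpGs each and peaks 1 to 8 held 1 to 4. CCAAT was present on either strand at 7 of 14 peaks, against 30.8% of all optimal peaks, and TGCCGC at 1, peak 14, against 6.9%. None of the 14 windows was repeat sequence over more than 50% of its length, while 15.6% of all windows were.

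The stretch around Kcnq1ot1 was the emptiest part of the span. Peaks 9 and 10 were 175.7 kb apart and peaks 10 and 11 were 134.4 kb apart, and these were the only gaps over 100 kb among the 13 of the span. Of all autosomal gaps between neighbouring summits 7.27% were longer than 100 kb, and their median was 13.2 kb. As long as the longer of the pair were 3.21% of autosomal gaps, and 4.79% were as long as the shorter. Without peak 10 the stretch from peak 9 to peak 11 was 310.1 kb, a length that 1.28% of autosomal gaps reached. Peaks as weak as peak 10 were kept elsewhere in that comparison, so this share is not like for like. In the conservative list the longest gap was 283.2 kb, since it listed a peak of signal 22.6 in Kcnq1 between peak 9 and the Kcnq1ot1 gene. In the strongest peaks of replicate 1 alone it was 310.1 kb, and in those of replicate 2 alone 292.0 kb. The replicate 2 gap ended at 143445976, between Kcnq1 and Cdkn1c. The list called on both replicates also held a peak there, 149.4 kb from the Kcnq1ot1 start. Its signal of 25.8 was above the 20.02 of peak 10, but it was in neither IDR list.

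**Figure D4:**
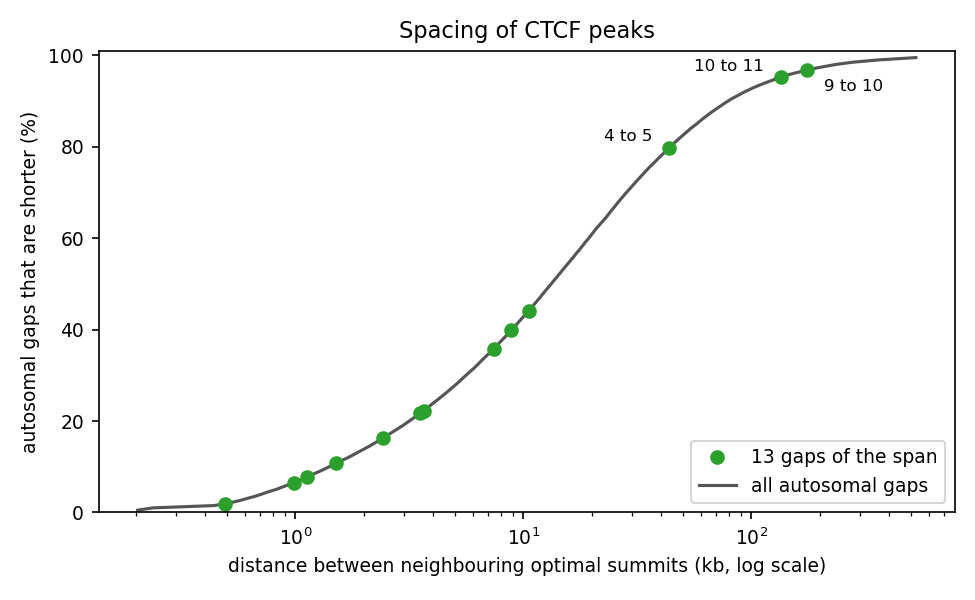
Share of autosomal gaps that are shorter (%) against the distance between neighbouring optimal summits (kb, log scale). Points are the 13 gaps of the span, which lie on the curve of all autosomal gaps by construction. The gaps from peak 9 to 10 (175.7 kb) and from peak 10 to 11 (134.4 kb) are far out on the right, and 7 of the 13 gaps are under 5 kb.

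Outside that stretch the longest gap was 43.6 kb, between peaks 4 and 5, a length that 20.2% of autosomal gaps reached. Another optimal summit lay within 5 kb for 12 of the 14 peaks, all except peaks 10 and 14, against 45.9% of all optimal peaks. Peaks 3 and 4 were 492 bp apart, the closest pair. Peaks 7, 8 and 9 followed each other at 1124 and 1513 bp, and peaks 11, 12 and 13 at 2422 and 3655 bp.

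Inside Kcnq1ot1 (93.1 kb) neither the optimal nor the conservative list held a peak. The list called on both replicates together, which goes far down to weak peaks, held 3, with a highest signal of 11.2, below the 20.02 of peak 10 in that list. Replicate 1 listed 8 with a highest signal of 6.56, and replicate 2 listed 7 with a highest of 5.56. The gene body held 2 matches to the CTCF matrix at the p of 1e-05 and 0 at 1e-06. Over the whole span there were 26 matches at the p of 1e-05 and 10 at 1e-06, of which 11 and 8 lay at an optimal peak. The 2 matches inside Kcnq1ot1 are shown in the same way as those above. Neither lies at a peak of the optimal list or of the list called on both replicates. Their distances to summits of the replicate lists were not taken.
Kcnq1ot1 gene body, chr7:143225631-143225670, plus strand: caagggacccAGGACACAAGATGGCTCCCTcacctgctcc
Kcnq1ot1 gene body, chr7:143253792-143253831, plus strand: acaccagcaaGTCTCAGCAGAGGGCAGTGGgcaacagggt
Their p-values were 8.80e-06 and 8.05e-06, and the nearest summit of the list called on both replicates was 27241 bp from the first and 13667 bp from the other. A site without a listed peak is not shown to lack CTCF, because read depth is not given.

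None of the 3 genes had an optimal peak within 1 kb of a start, while 43.4% of 21755 protein-coding genes and 20.1% of 9603 long noncoding RNA genes had one. The nearest peak was 33150 bp from the Kcnq1ot1 start (peak 10), 10949 bp from a start of Kcnq1 (peak 4) and 3034 bp from a start of Cdkn1c (peak 11). The first distance hung on peak 10. It was 115670 bp in the conservative list, 142542 bp without replicate 1 and 142548 bp without replicate 2. Without a replicate, only the 68590 strongest peaks of the other replicate's list were kept. That cut left out weak summits 42 bp (replicate 1, rank 69509) and 45 bp (replicate 2, rank 130164) from the Kcnq1ot1 start. For Kcnq1 the distance was 1786 bp in the conservative list, 70 bp without replicate 1 and 1785 bp without replicate 2, while that of Cdkn1c was 3034 bp in each. Cdkn1c therefore counts among the 61.3% of protein-coding genes with a peak within 5 kb.

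At the Kcnq1ot1 start there was a weak peak outside both IDR lists. In the list called on both replicates its summit was 23 bp upstream of the start, with a signal of 16.9, higher than 69.2% of that list. In replicate 1 it was 42 bp upstream with 14.6, higher than 76.8% of that list. In replicate 2 the nearest summit was 45 bp downstream with 5.54, higher than 56.6% of that list. These 2 replicate summits were 87 bp apart. The log2 ratio of replicate 1 to replicate 2 was 1.40, which is 2.36 SD above the median of all optimal peaks. The optimal peaks passed an IDR threshold and are mostly stronger. Peaks of like strength outside the IDR lists were not used as a reference. A peak of the list called on both replicates lay within 1 kb of a start for 46.7% of long noncoding RNA genes, a share that counts peaks of any strength, those in the IDR lists included. No match to the CTCF matrix lay within 2 kb of the start, nor within 50 bp of any of the 3 summits at a looser p of 1e-04.

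At Cdkn1c the lists held only weak peaks at the gene itself. The list called on both replicates had a summit 390 bp upstream of an inner start with 6.89 and one 983 bp downstream of a start with 9.79. In replicate 1 the highest within 2 kb of a start was 8.27, and in replicate 2 it was 5.63. The contrast in level within a few kb was large, with 358 at peak 11, 404 at peak 12 and 402 at peak 13, which lay 3034, 5456 and 9111 bp upstream of the nearest Cdkn1c start. Peak 13 lay 3575 bp upstream of Slc22a18, so these 3 peaks lie in the interval between the divergent starts of Cdkn1c and Slc22a18.

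At Kcnq1, which has 7 annotated starts, the strongest peak within 2 kb of a start had a signal of 30.7, was 1786 bp downstream and was in the conservative list but not the optimal one. It held a motif match, with 15.1 in replicate 1 and 14.6 in replicate 2. A further peak, in neither IDR list, was 63 bp downstream of an inner start with 20.8 (8.08 in replicate 1 and 12.9 in replicate 2). Its log2 ratio of replicate 1 to replicate 2 was -0.68, against a median of 0.30 over the optimal peaks. A weaker one was 9 bp upstream of another start, with 10.2. The conservative list held 16 peaks in the span, 13 of the 14 members and 3 others, with signals of 30.7, 22.6 and 30.1. All 3 were found in both replicates and 2 held a motif match. The list called on both replicates held 61 peaks in the span, of which 44 were in neither IDR list. Their signals ran from 6.89 to 25.8 with a median of 8.64, and 2 of them held a motif match.

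**Figure D5:**
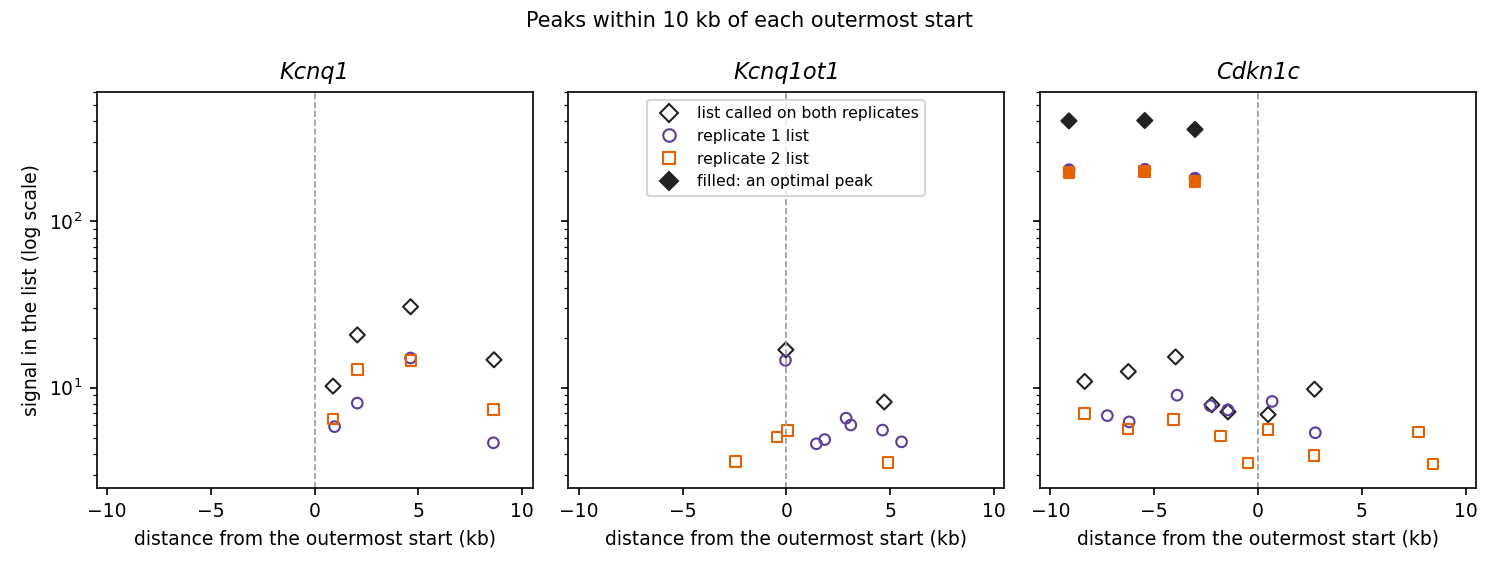
Peaks within 10 kb of the outermost start of each gene, by distance along the direction of transcription (kb) and signal on a log scale, in the list called on both replicates (diamonds) and the list of each replicate. Filled symbols are optimal peaks, which appear here only upstream of Cdkn1c, with diamonds at 358 to 404. The highest symbol at the Kcnq1ot1 start is 16.9.

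The peaks before Kcnq1 lay at starts of Trpm5, which encodes a cation channel of taste cells. Peak 1 lay 605 bp downstream of a Trpm5 start, peak 2 lay 297 bp upstream of one, and peaks 3 and 4 lay 279 and 771 bp upstream of one. Peak 1 had 235, peak 2 had 118, peak 3 had 205 and peak 4 had 42.0. With peak 10 they made 5 of 14 peaks within 1 kb of any annotated start, against 21.1% of all optimal peaks. In the introns of Kcnq1, peak 5 (signal 216) also lay inside the antisense gene Gm28821, 1614 bp from its start. No annotated start was nearer than 10761 bp to peaks 7 (204), 8 (234) and 9 (397).

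The span's borders were set 20 kb beyond the outermost genes, and the nearest peaks on each side show what that choice includes. Peak 1 was 162 bp inside the border, and the next optimal peak before it (signal 219) was 13063 bp outside. Peak 14 was 335 bp inside, and the next one after it (147) was 25010 bp outside.

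Among 11 neighbours of the same cluster, 6 had an optimal summit no more than 1 kb from a start, called a promoter peak here, against 43.4% of all protein-coding genes. The strongest were at Trpm5 (235), Ascl2, a transcription factor gene of the placenta (129), and Cd81, a tetraspanin gene (103). Osbpl5 (83.2), Nap1l4 (46.2) and Tssc4 (35.4) followed. The imprinted genes nearest to Cdkn1c, Slc22a18 and Phlda2, had none, with nearest peaks 3575 and 2910 bp away, and Tspan32, Cars and Tnfrsf23 had none.

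The 5 KCNE genes, for accessory subunits of potassium channels such as that of Kcnq1, had no promoter peak, with nearest peaks between 3467 bp (Kcne2) and 29741 bp (Kcne4) from a start. Of the 3 CIP/KIP inhibitor genes Cdkn1b, for p27Kip1, had one (26.1). Cdkn1a, for p21, had its nearest peak at 1256 bp and Cdkn1c at 3034 bp. The lists are too short for their shares to be set firmly against the 43.4% of all protein-coding genes.

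Of 7 imprinted long noncoding RNA genes 3 had a promoter peak, against 20.1% of all long noncoding RNA genes. With 7 genes that difference cannot be set firmly. The 3 were Meg3 (301; 166 in replicate 1 and 134 in replicate 2), Peg13 (188; 114 in replicate 1 and 68.9 in replicate 2) and Nespas (79.8; 39.0 in replicate 1 and 38.4 in replicate 2). Kcnq1ot1, Airn, H19 and Snhg14 had none. The nearest optimal peak was 33150 bp from the Kcnq1ot1 start, 5269 bp from that of Airn, 1131 bp from that of H19 and 25168 bp from that of Snhg14. At Airn, the antisense RNA of the Igf2r domain, the list called on both replicates had a peak 1 bp from a start with a signal of 23.4, beside the 16.9 at Kcnq1ot1.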

How the data were processed

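CTCF ChIP-seq of newborn mouse midbrain was analysed from 5 narrowPeak lists on mm10. The text notes beside the files give their origin. The authors called 1 list on each replicate's alignments and 1 on those of both, each with a further alignment that the notes also list for the fold-over-control tracks. The optimal and conservative lists are IDR thresholded and derive from these 3. For the caller, aligner, IDR threshold and read depth, the sources used here give nothing. The deposited signal value was used by rank within lists. The deposited -log10 q value is capped in each list and ranked nothing. Intervals are not given because depth is unknown.

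Positions are 1-based summits. Genes came from GENCODE vM21 and sequence from GRCm38.p6. The CTCF matrix (20 bp) was learned by expectation maximisation from the 2000 strongest peaks of even chromosomes to score odd ones and X, and the reverse, and was tested on simulated data. Per-position p-values were computed under the base composition of windows 1 kb away. Python 3.11.15, numpy 2.4.6, pandas 2.3.3 and pysam 0.24.0 were used. The members, gene lists and alternatives were chosen with earlier results of these data known. Named peaks were those within 5 kb of a start of the 3 genes, the 5 strongest, the weakest and, of peaks in no IDR list, those within 2 kb of a start. Others named were added after their values were seen. Alternatives were the other lists, distances, motif thresholds, span limits and leaving out each replicate. To leave out a replicate, the 68590 strongest peaks of the other replicate's list were used. A further gene list is not reported here.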

Additional observations from a re-analysis of the deposited data

How the results depend on the processing

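With 1 group, no test was made, and values are compared as counts and medians. Among the alternatives for the counts and the median percentile, 26 values stayed close to the reported value (counts within 1.5 times, the median within 0.287 points, the SD between replicates) and 8 moved. Without the 20 kb on each side the span held 6 peaks, of which 4 had a motif and 5 were found in both replicates. The peaks in the flanks are left out by construction. The median percentile was 73.1 in the conservative list, 77.7 in the stronger 50% of peaks and between 74.1 and 74.9 with 1 replicate left out. In the stronger 50% the percentiles stayed those of the full list, so dropping the weaker peaks raised the median by construction. Peaks within 1 kb of a start of the 3 genes numbered between 0 and 1 with 1 replicate left out, the 1 being a Kcnq1 peak in replicate 2, and 1 within 5 kb, at Cdkn1c. The distance from the Kcnq1ot1 start was 142543 bp in the stronger 50%, and the other distances that moved stand in the report. No paired analysis was possible because there is 1 group. The count found in both replicates has no value with a replicate left out. Unknown depth limits every statement on sites without a listed peak.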
